A study of Homo sapiens with 4 samples.

Results

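The SLC25 family of mitochondrial carriers was examined in BEAS2B cells after knockdown of the RNA-binding protein QKI. Members were taken by symbol, as every gene listed as SLC25A followed by a number, whatever its value. This gave 44 members among the 16708 genes listed in at least 1 library. BEAS2B is a virus-transformed line of human bronchial epithelial cells. The sh-QKI cells carry a retrovirus with 1 shRNA directed at all QKI isoforms. The sh-Ctrl cells carry a retrovirus with an shRNA directed at luciferase. Each group has 2 RNA-Seq libraries, numbered replicate 1 and replicate 2, all from 1 cell line. Separate cultures are stated for neither group, so the p-values below cover the spread among these 4 libraries alone, and that spread may be technical.

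Carriers of this family fold as repeats of paired membrane helices and mostly sit in the inner mitochondrial membrane, where they move metabolites between the cytosol and the matrix. Most exchange one substrate for another, such as ADP for ATP, while others carry phosphate, amino acids, cofactors or iron. In epithelial cells they feed oxidative phosphorylation, export citrate for lipid synthesis and supply the matrix with nucleotides and cofactors. QKI is a STAR-family protein that binds RNA and acts in splicing and mRNA stability. How the mRNA of each carrier stood after QKI knockdown, by transported substrate and within each replicate number, is the comparison made here.

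Levels are RPKM, reads scaled by gene length and by the total of the library, so they compare genes per length. Whole reads were recovered from these values for all genes. The totals behind the RPKM were between 20571555 and 34862008 reads in the sh-QKI libraries and between 20052951 and 34706058 reads in the sh-Ctrl libraries. Summed over genes, the recovered reads were 31145736 and 48091243 in sh-QKI libraries 1 and 2. In sh-Ctrl libraries 1 and 2 they were 30740875 and 46802871. These sums exceed the totals in each library, so the recovered reads may not all be distinct reads, and the reason was not tested. QKI mRNA was at 2.52 and 3.85 RPKM in sh-QKI libraries 1 and 2, against 8.94 and 14.6 RPKM in sh-Ctrl libraries 1 and 2, so the targeted gene was lower in both numbers. Its log2 change was -1.72, with an adjusted p of 1.00 in limma without a block and of 3.16e-33 with the replicate number as a block. Of 7 epithelial markers, 4 (KRT7, KRT8, KRT18 and EPCAM) had a mean of at least 0.5 RPKM and all 7 summed to 649 and 255 RPKM in sh-QKI libraries 1 and 2, against 683 and 216 RPKM in sh-Ctrl libraries 1 and 2, while CDH1 was at most 0.181 RPKM and KRT5 was listed in no library. Of 5 mesenchymal markers, 3 (VIM, COL1A1 and PDGFRB) had such a mean, and all 5 summed to 733 and 288 RPKM in sh-QKI libraries 1 and 2, against 1017 and 302 RPKM in sh-Ctrl libraries 1 and 2. VIM was lower and COL1A1 and PDGFRB were higher in sh-QKI cells within both numbers, and 1 of 5 leukocyte, 0 of 3 endothelial and 0 of 3 ciliated or secretory markers had a mean of at least 0.5 RPKM. In such bulk libraries, fewer cells of a type and less RNA per cell cannot be told apart.

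Of the 44 carriers, 35 had a mean of at least 0.5 RPKM over the 4 libraries and were tested, among 11829 such genes. The other 9 were SLC25A2, SLC25A18, SLC25A21, SLC25A27, SLC25A31, SLC25A34, SLC25A41, SLC25A45 and SLC25A48. The limit fell in a gap, since the lowest mean of a tested carrier was 2.14 RPKM (SLC25A42) and the highest mean below the limit was 0.309 RPKM (SLC25A34). Over the tested carriers the median of the mean levels was 8.30 RPKM, beside 7.93 RPKM over all tested genes. A tested carrier was covered by between 66 and 36274 reads in a library.

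The ADP/ATP carriers exchange matrix ATP for cytosolic ADP, and SLC25A5, the form known from dividing cells, had the highest mean RPKM of the family. It ranked 87 among all genes by mean RPKM. SLC25A4, SLC25A5 and SLC25A6 share a run of arginine and methionine codons that marks ADP/ATP carriers. The 60 bases of coding sequence around it, read from the hg19 reference genome, are shown because reads had to be told apart between such copies. Capitals mark the codons of the run, which starts at residue 235 in each of the 3 genes.
SLC25A4, chr4:186066993-186067052, plus strand: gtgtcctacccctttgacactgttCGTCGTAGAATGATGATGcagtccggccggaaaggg
SLC25A5, chrX:118604416-118604475, plus strand: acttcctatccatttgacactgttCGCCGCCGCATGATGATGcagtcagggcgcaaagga
SLC25A6, chrX:1506173-1506232, minus strand: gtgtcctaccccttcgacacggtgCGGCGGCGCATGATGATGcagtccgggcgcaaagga

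All 3 stretches lie within 1 exon. Over these 60 bases SLC25A4 differs from SLC25A5 at 13 positions and from SLC25A6 at 10 positions, and SLC25A5 differs from SLC25A6 at 11. Over the 894 coding bases SLC25A5 was 77.2% identical to SLC25A4 and 78.7% identical to SLC25A6. The authors allowed 3 mismatches in a read. Of the 845 aligned windows of 50 bases in the coding sequence, 0 were within 3 mismatches between SLC25A4 and SLC25A5, 2 between SLC25A4 and SLC25A6, and 12 between SLC25A5 and SLC25A6. Exact copies elsewhere in the genome were found for 9.78% of the 50-base windows and 0.568% of the 75-base windows of the SLC25A5 transcript. Reads from such windows were left out by the authors as ambiguous. Apart from the coding windows above, copies with up to 3 mismatches were not searched for. The level of SLC25A5 may thus be understated, which was not tested. SLC25A6 lies in a region shared by chromosomes X and Y, whose Y copy is masked in the reference used here, and the sources used here do not say how the authors' index held it. If that index held both copies unmasked, reads of SLC25A6 would have been ambiguous and left out. The level of SLC25A6 may then be understated as well, which was not tested either. Comparisons with SLC25A5 or SLC25A6 and shares of the family's RPKM carry these limits.

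SLC25A5 was at 226 and 169 RPKM in sh-QKI libraries 1 and 2, against 219 and 158 RPKM in sh-Ctrl libraries 1 and 2. It was higher after knockdown within both numbers, by 0.04 and 0.10 on the log2 scale, while the groups overlapped. The group means were 198 ± 39.9 RPKM in sh-QKI cells and 188 ± 43.2 RPKM in sh-Ctrl cells (SD, n = 2 each). SLC25A4, the form of heart and skeletal muscle, was at 10.5 and 6.19 RPKM in sh-QKI cells and at 10.3 and 6.23 RPKM in sh-Ctrl cells. The level of SLC25A5 was therefore 21.4 and 27.3 times that of SLC25A4 in sh-QKI libraries 1 and 2, and 21.3 and 25.3 times in sh-Ctrl libraries 1 and 2. SLC25A6, a widely expressed form, was at 5.64 and 5.34 RPKM in sh-QKI cells and at 7.23 and 4.81 RPKM in sh-Ctrl cells. For SLC25A31, the testis form, at least 1 read was found in sh-Ctrl library 1 and none in the other 3 libraries.

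SLC25A23, SLC25A24 and SLC25A25 exchange ATP-Mg for phosphate and bind calcium through EF-hands. SLC25A24 was at 13.1 and 29.5 RPKM in sh-QKI libraries 1 and 2, against 12.5 and 32.7 RPKM in sh-Ctrl libraries 1 and 2. Its mRNA was over 2-fold higher in replicate 2 than in replicate 1 of both groups, and its changes after knockdown were 0.06 and -0.15. SLC25A23 and SLC25A25 had changes of 0.00 and -0.04 in replicate 1 and of 0.33 and 0.32 in replicate 2. SLC25A41, a short relative that lacks the EF-hands, was covered by 12 reads or fewer in each library.

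**Figure D1:**
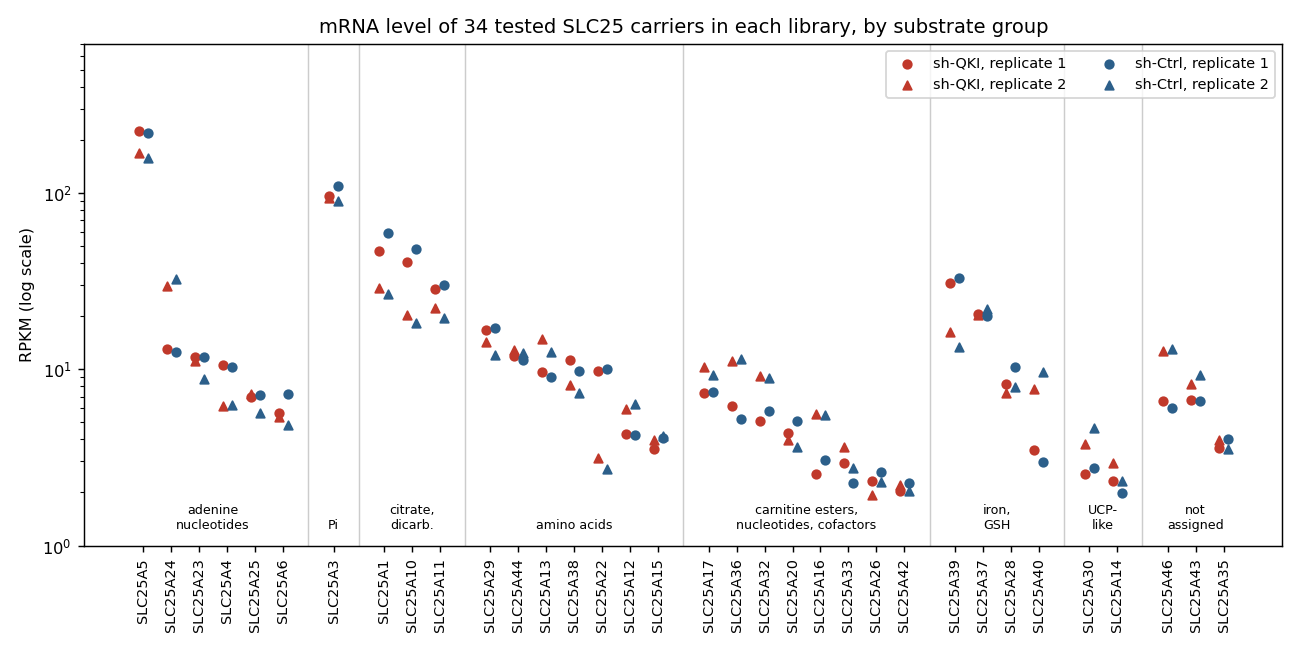
RPKM on a log axis for 34 tested SLC25 carriers (x axis, by substrate group and falling mean), with sh-QKI libraries in red and sh-Ctrl libraries in blue, replicate 1 as circles and replicate 2 as triangles. SLC25A5 lies highest, between 158 and 226 RPKM, and for many carriers the circles and triangles lie further apart than the colors.

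SLC25A3, which imports the phosphate used for ATP synthesis and also carries copper, had the mRNA with the next highest mean of the family and ranked 280 among all genes. It was at 96.3 and 93.2 RPKM in sh-QKI libraries 1 and 2, against 109 and 90.6 RPKM in sh-Ctrl libraries 1 and 2. The groups overlapped, with changes of -0.18 and 0.04 within the numbers. SLC25A5 and SLC25A3 together made up 47.4% and 44.1% of the summed RPKM of the 44 carriers in sh-QKI libraries 1 and 2, and 46.1% and 43.8% in sh-Ctrl libraries 1 and 2.

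The carriers of citrate and dicarboxylates move intermediates of the citric acid cycle. SLC25A1, which exports citrate in exchange for malate, was at 46.6 and 28.8 RPKM in sh-QKI libraries 1 and 2, against 59.5 and 26.7 RPKM in sh-Ctrl libraries 1 and 2. SLC25A10, which exchanges malate or succinate for phosphate, was at 40.4 and 20.3 RPKM in sh-QKI cells and at 48.3 and 18.3 RPKM in sh-Ctrl cells. SLC25A11, the 2-oxoglutarate/malate carrier of the malate-aspartate shuttle, was at 28.7 and 22.1 RPKM in sh-QKI cells and at 30.1 and 19.6 RPKM in sh-Ctrl cells. All 3 were lower after knockdown in replicate 1 and higher in replicate 2, so that in sh-QKI cells the libraries of the 2 numbers lay closer together than in sh-Ctrl cells. SLC25A21, the oxoadipate carrier, had between 8 and 13 reads per library.

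Of the 9 carriers of amino acids, 7 were tested. SLC25A29, which carries basic amino acids, was at 16.7 and 14.3 RPKM in sh-QKI libraries 1 and 2, against 17.0 and 12.1 RPKM in sh-Ctrl libraries 1 and 2. SLC25A44, a carrier of branched-chain amino acids, was at 11.9 and 12.8 RPKM in sh-QKI cells and at 11.4 and 12.4 RPKM in sh-Ctrl cells. It was higher after knockdown by only 0.06 and 0.05, and its levels in all 4 libraries were close. SLC25A38, which imports glycine for heme synthesis, was at 11.3 and 8.15 RPKM in sh-QKI cells and at 9.79 and 7.30 RPKM in sh-Ctrl cells. SLC25A13, known as citrin, and SLC25A12, known as aralar, are the calcium-regulated aspartate/glutamate carriers. SLC25A13 was at 9.60 and 14.8 RPKM in sh-QKI cells and at 9.04 and 12.5 RPKM in sh-Ctrl cells. The level of SLC25A13 was 2.22 and 2.48 times that of SLC25A12 in sh-QKI libraries 1 and 2, and 2.13 and 1.97 times in sh-Ctrl libraries 1 and 2. SLC25A15, the ornithine/citrulline carrier of the urea cycle, was at 3.52 and 3.97 RPKM in sh-QKI cells and at 4.08 and 4.18 RPKM in sh-Ctrl cells, which did not overlap. The glutamate carrier SLC25A22 was, of the tested carriers, the one furthest apart between the numbers, at 9.76 and 3.15 RPKM in sh-QKI libraries 1 and 2 and at 10.1 and 2.71 RPKM in sh-Ctrl libraries 1 and 2. SLC25A18, the other glutamate carrier, and SLC25A2, a carrier of ornithine, had at most 13 reads in a library.

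The carriers of carnitine esters, nucleotides and cofactors were all of low or moderate abundance. SLC25A17, a peroxisomal carrier of coenzyme A and related cofactors, had the highest mean of the group, at 7.29 and 10.2 RPKM in sh-QKI libraries 1 and 2, against 7.44 and 9.24 RPKM in sh-Ctrl libraries 1 and 2. SLC25A33 and SLC25A36 import pyrimidine nucleotides used for mitochondrial RNA and DNA. SLC25A33, on chromosome 1 of hg19 from 9599524 to 9645231 on the plus strand, was at 2.92 and 3.64 RPKM in sh-QKI libraries 1 and 2, against 2.27 and 2.77 RPKM in sh-Ctrl libraries 1 and 2. Both sh-QKI libraries lay above both sh-Ctrl libraries, with group means of 3.28 ± 0.512 RPKM in sh-QKI cells and 2.52 ± 0.349 RPKM in sh-Ctrl cells (SD, n = 2 each). SLC25A26, which imports S-adenosylmethionine, was at 2.31 and 1.94 RPKM in sh-QKI cells and at 2.61 and 2.31 RPKM in sh-Ctrl cells, so it was lower within both numbers while the groups overlapped. SLC25A16, SLC25A20, SLC25A32, SLC25A36 and SLC25A42, which carry other cofactors, acylcarnitines or nucleotides, had changes between -0.22 and 0.22 within the numbers. SLC25A48, a choline carrier, had at least 3 reads in sh-QKI library 1 and at least 1 read in sh-Ctrl library 1. It was not listed in replicate 2.

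Iron and glutathione carriers serve heme and iron-sulfur cluster synthesis. SLC25A39, which imports glutathione, was at 30.9 and 16.2 RPKM in sh-QKI libraries 1 and 2, against 32.8 and 13.4 RPKM in sh-Ctrl libraries 1 and 2. Its relative SLC25A40 ran the other way between the numbers, at 3.47 and 7.73 RPKM in sh-QKI cells and at 2.99 and 9.67 RPKM in sh-Ctrl cells. The level of SLC25A39 was accordingly 8.92 and 2.10 times that of SLC25A40 in sh-QKI libraries 1 and 2, and 11.0 and 1.39 times in sh-Ctrl libraries 1 and 2. Mitoferrin-1, encoded by SLC25A37 and known as the iron importer of erythroid cells, was at 20.7 and 20.2 RPKM in sh-QKI cells and at 20.2 and 21.9 RPKM in sh-Ctrl cells. Mitoferrin-2, encoded by SLC25A28, was at 8.22 and 7.37 RPKM in sh-QKI cells and at 10.4 and 7.93 RPKM in sh-Ctrl cells. The level of SLC25A37 was 2.51 and 2.74 times that of SLC25A28 in sh-QKI libraries 1 and 2, and 1.95 and 2.76 times in sh-Ctrl libraries 1 and 2, so the form known from erythroid cells was the higher one in all 4 libraries.

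Among the relatives of the uncoupling proteins, SLC25A30 was at 2.54 and 3.79 RPKM in sh-QKI libraries 1 and 2, against 2.74 and 4.67 RPKM in sh-Ctrl libraries 1 and 2. SLC25A14 was at 2.31 and 2.93 RPKM in sh-QKI cells and at 1.99 and 2.34 RPKM in sh-Ctrl cells. SLC25A14 was higher and SLC25A30 lower after knockdown within both numbers, with overlapping groups in each case. Of the 5 carriers to which no substrate was assigned here, SLC25A46, a protein of the outer membrane, was the most abundant, at 6.61 and 12.6 RPKM in sh-QKI cells and at 6.02 and 13.1 RPKM in sh-Ctrl cells.

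**Figure D2:**
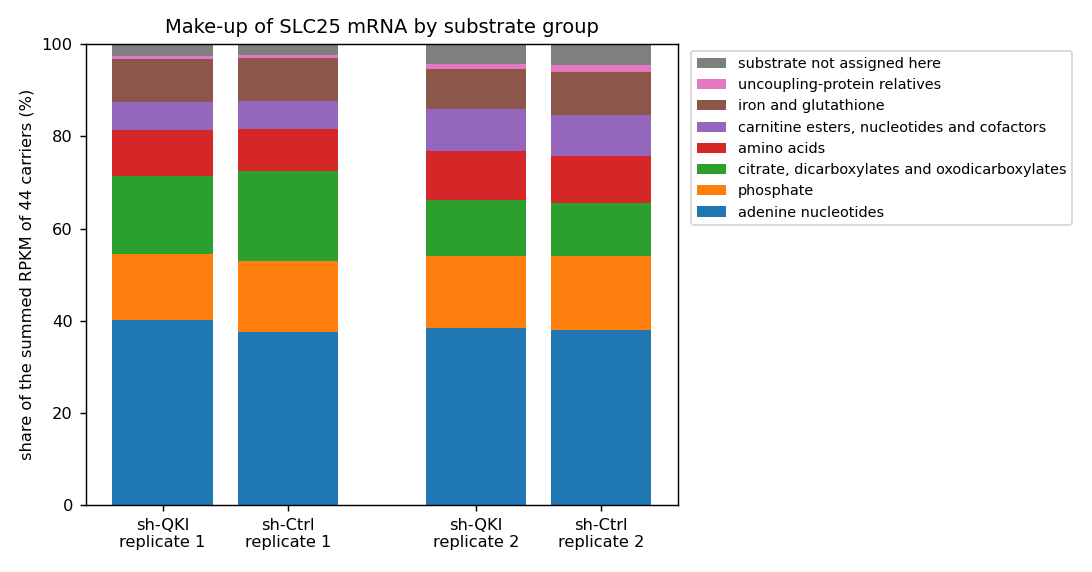
Share of the summed RPKM of the 44 carriers held by each substrate group (stacked bars, in percent) in the 4 libraries, with sh-QKI left of sh-Ctrl within each replicate number. The adenine nucleotide carriers held 40.3% and 38.5% in sh-QKI libraries 1 and 2, and 37.7% and 38.1% in sh-Ctrl libraries 1 and 2.

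As a family, the carriers held 0.301% and 0.305% of the RPKM of all genes in sh-QKI libraries 1 and 2, against 0.308% and 0.302% in sh-Ctrl libraries 1 and 2. The citrate and dicarboxylate carriers took 17.0% of the family's RPKM in sh-QKI library 1 and 19.4% in sh-Ctrl library 1, but 12.0% in sh-QKI library 2 and 11.4% in sh-Ctrl library 2. The carriers of carnitine esters, nucleotides and cofactors ran the other way between the numbers, with 6.06% and 9.11% in sh-QKI libraries 1 and 2 and 5.92% and 9.05% in sh-Ctrl libraries 1 and 2. The shares of both groups of carriers thus differed more between the numbers than between sh-QKI and sh-Ctrl cells. The adenine nucleotide carriers, the largest group, did not follow this, since their share differed most between sh-QKI and sh-Ctrl cells of replicate 1.

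For each gene, log2(RPKM + 0.5) was compared between sh-QKI and sh-Ctrl cells with limma, a scale that understates the change of low genes. Without a block, limma called 0 of the 35 carriers at an adjusted p under 0.05, and 0% of the 11829 tested genes higher and 0% lower. At an unadjusted p under 0.05 it gave 0 carriers, with 13 genes in all. With the replicate number as a block it also called 0 carriers, beside 0.49% of the tested genes called higher and 0.364% called lower. At an unadjusted p under 0.05 the block gave 1 carrier, SLC25A33, among 727 genes. Voom of limma on the recovered reads called 0 carriers too, without the block beside 0% of all tested genes, and with the block beside 0.583% called higher and 0.575% called lower.

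The standard errors of the carriers were between 0.246 and 0.809 without the block and between 0.115 and 0.151 with it. Without the block, the difference between the numbers counts as spread within a group. With the block, limma took the error almost wholly from genes of like mRNA level. A carrier's own disagreement between the numbers thus had almost no weight in its interval and p-value. The standard error of SLC25A40 was 0.137 and that of SLC25A33 was 0.147. The first had changes of 0.18 and -0.31 within the numbers and the other of 0.30 and 0.34. For 34 of the 35 carriers the 95% interval of the change with the block lay within 1.5-fold in either direction. The same count was not made over all tested genes, so it does not set the carriers apart. Without the block this held for 0 carriers, and the narrowest interval was -0.70 to 0.62 (SLC25A37). The exception with the block was SLC25A33, with a log2 change of 0.32 and an interval of 0.04 to 0.61 (limma adjusted p with the block = 0.635).

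**Figure D3:**
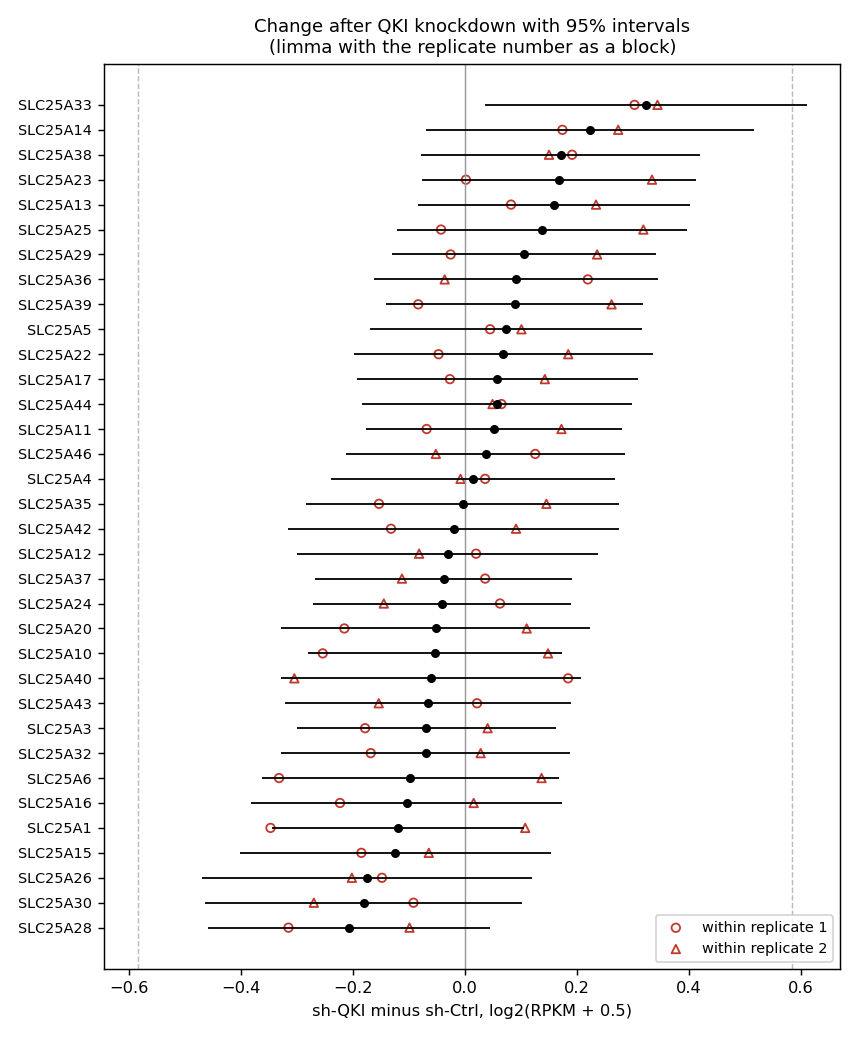
Change of 34 tested carriers after QKI knockdown on the log2(RPKM + 0.5) scale (x axis), with the estimate of limma with the replicate number as a block and its 95% interval in black, and the changes within replicate 1 and replicate 2 as red circles and triangles. Dashed lines mark 1.5-fold in either direction, and only the interval of SLC25A33, from 0.04 to 0.61, runs past one of them.

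The median log2 change of the 35 carriers was -0.00, beside 0.03 over all tested genes. Within replicate 1 it was -0.03 for the carriers and 0.02 for all genes, and within replicate 2 it was 0.10 for the carriers and 0.05 for all genes. The SD of the changes over the carriers was 0.16 in replicate 1 and 0.17 in replicate 2, beside 0.20 and 0.21 over all tested genes. By substrate group, the median change lay between -0.07 for phosphate, with 1 member, and 0.07 for amino acids.

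Of the 35 carriers, 8 were higher in sh-QKI cells within both numbers (22.9%, beside 31.7% of all tested genes) and 4 were lower within both (11.4%, beside 16.6%). Among the 8 were SLC25A5, SLC25A13, SLC25A14, SLC25A23, SLC25A33, SLC25A38 and SLC25A44, and the 4 were SLC25A15, SLC25A26, SLC25A28 and SLC25A30. On the log2(RPKM + 0.5) scale, 0 carriers were over 1.25-fold higher within both numbers and 0 were lower, beside 0.947% and 0.702% of all tested genes. By the plain ratio of RPKM, a count added after the data were seen, 1 carrier, SLC25A33, was over 1.25-fold higher within both and 0 were lower, beside 1.61% and 1.47% of all tested genes. SLC25A33 was the carrier whose sh-QKI libraries both lay above both sh-Ctrl libraries, as did 5.71% of all tested genes. SLC25A15 was the carrier whose sh-QKI libraries both lay below, as did 2.89% of all tested genes. In each direction 1 carrier is 2.86% of the 35, below the background for libraries above and near it for libraries below.

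By the smaller of its changes within the numbers, the order of the 5 largest rises was SLC25A33, SLC25A14, SLC25A38, SLC25A13 and SLC25A44, none of which passed the test. SLC25A14 changed by 0.17 and 0.27 within replicate 1 and replicate 2, and its interval with the block was -0.07 to 0.52. SLC25A38 changed by 0.19 and 0.15, with an interval of -0.08 to 0.42. SLC25A13 changed by 0.08 and 0.23, with an interval of -0.09 to 0.40. These intervals overlap each other widely, so the order among them is not resolved. On the side of the falls, SLC25A28 changed by -0.32 and -0.10, with an interval of -0.46 to 0.04. SLC25A26 changed by -0.15 and -0.20, with an interval of -0.47 to 0.12. SLC25A30 changed by -0.09 and -0.27 and SLC25A15 by -0.19 and -0.06, and the intervals of both included 0. In limma with the block the adjusted p was 0.999 for each of these carriers other than SLC25A33.

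Counting error alone bears on the low members of this order. SLC25A33 was covered by 87 and 184 reads in sh-QKI libraries 1 and 2, against 66 and 139 reads in sh-Ctrl libraries 1 and 2. Its ratio of sh-QKI to sh-Ctrl was 1.28 in replicate 1, with an exact 95% interval of 0.922 to 1.80, and 1.32 in replicate 2, with an interval of 1.05 to 1.65, which cover counting error only. All counting intervals given here take each recovered read as distinct. They are too narrow if reads were counted more than once within a gene, and the shares of genes built on them carry the same limit. For 28.2% of the 50-base windows and 19.3% of the 75-base windows of its transcript, an exact copy was found elsewhere in the genome, the largest shares of the family. This transcript has 3865 bases, while the length behind the RPKM was 1448, so the copied windows may lie outside the counted part. For SLC25A33 that length was 0.375 times the union of its annotated exons, the lowest of the family, where the median was 1.32 and the highest 2.84 (SLC25A43). Levels compared between members depend on these lengths, as does, through the pseudocount of 0.5, how far a low change is shrunk. The log2 change of SLC25A33 was 0.37 with a pseudocount of 0.1 and 0.28 with a pseudocount of 1. The counting interval left out 1 in both numbers for 6 carriers. For 5 of them (SLC25A1, SLC25A3, SLC25A10, SLC25A40 and SLC25A46) the numbers had opposite directions, 14.3% of the tested carriers beside 17.4% of all tested genes. For 1, SLC25A5, they had the same direction, 2.86% beside 14.9% of all tested genes. The ratios of SLC25A5 were 1.03 (1.004 to 1.06) and 1.07 (1.05 to 1.10) at between 10258 and 13793 reads per library.

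**Figure D4:**
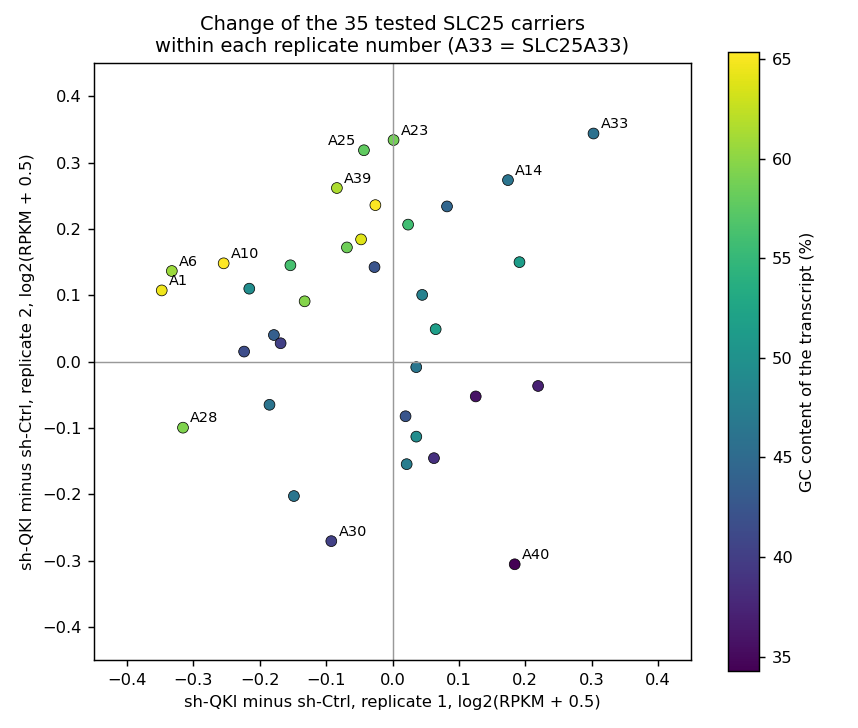
Change after QKI knockdown within replicate 1 (x axis) and replicate 2 (y axis) for the 35 tested carriers, on the log2(RPKM + 0.5) scale, with points colored by the GC content of the transcript. GC-rich carriers gather at the upper left and GC-poor carriers at the lower right, and SLC25A33 lies alone at the upper right at 0.30 and 0.34.

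The remaining 23 carriers had changes of opposite sign in the 2 numbers. Of these, 15 were lower after knockdown in replicate 1 and higher in replicate 2, among them SLC25A1, SLC25A3, SLC25A6, SLC25A10, SLC25A11, SLC25A29 and SLC25A39. The other 8 ran the opposite way and were SLC25A4, SLC25A12, SLC25A24, SLC25A36, SLC25A37, SLC25A40, SLC25A43 and SLC25A46. GC content of the transcript moved with this split. It was 40.2% to 65.3% in the 15, with a median of 58.5%, and 34.3% to 49.4% in the 8, with a median of 40.5%. Over all tested genes this split and its GC content were not counted. Of those genes, 31.7% were higher and 16.6% lower within both numbers, so changes of opposite sign were common outside the family too. Across the 35 carriers, the Pearson r between GC content and the change after knockdown was -0.47 in replicate 1 and 0.56 in replicate 2. Across the 11580 tested genes with a GC value, it was -0.35 in replicate 1 and 0.48 in replicate 2. These are descriptions across genes, which share the libraries and are not independent replicates, and the part of GC content in the changes was not tested.

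Most carriers differed between the replicate numbers. In limma with group and number as terms, 11 carriers were higher in replicate 2 than in replicate 1 (31.4%, beside 35.2% of all tested genes) and 11 were lower (31.4%, beside 35.7%). The 11 that were higher in replicate 2 were SLC25A12, SLC25A13, SLC25A16, SLC25A17, SLC25A24, SLC25A30, SLC25A32, SLC25A36, SLC25A40, SLC25A43 and SLC25A46, with a median GC content of 40.3%. Among the 11 that were lower were SLC25A1, SLC25A4, SLC25A5, SLC25A6, SLC25A10, SLC25A11, SLC25A22, SLC25A29, SLC25A38 and SLC25A39, and the 11 had a median GC content of 60.7%. Of the tested carriers SLC25A22 stood furthest apart, 3.10-fold higher in replicate 1 of sh-QKI cells and 3.73-fold higher in replicate 1 of sh-Ctrl cells, at a GC content of 63.8%. SLC25A40, at a GC content of 34.3%, the lowest of the tested carriers, was 2.23-fold higher in replicate 2 of sh-QKI cells and 3.23-fold higher in replicate 2 of sh-Ctrl cells. For 21 of the 35 carriers, the difference between the numbers was larger in both groups than the change after knockdown was in either number. This count was not made over all tested genes, so it does not set the carriers apart. The median size of the difference was 0.37 in sh-QKI and 0.47 in sh-Ctrl cells across the carriers. Across all tested genes it was 0.44 and 0.57.

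**Figure D5:**
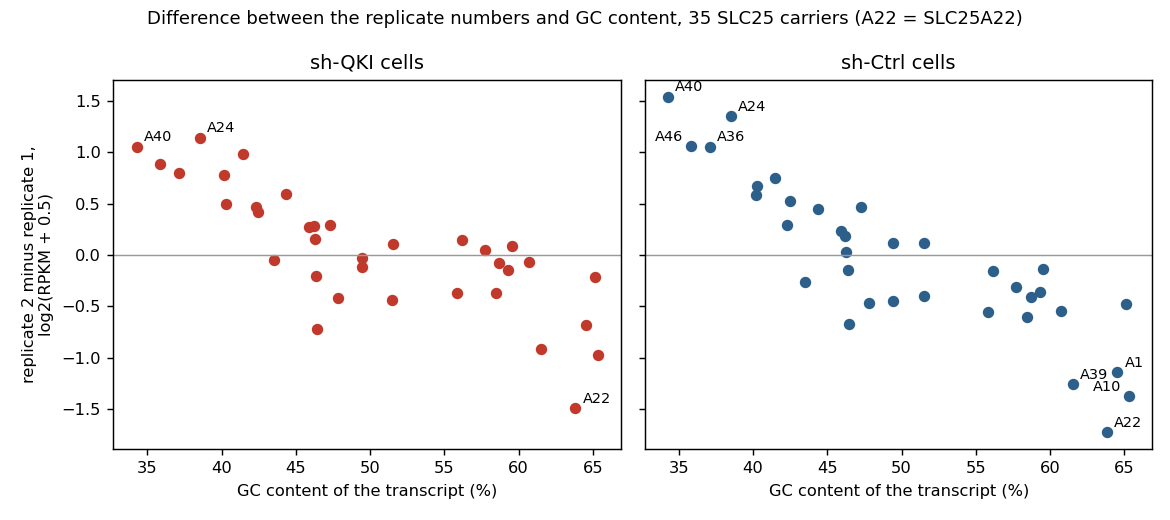
Difference between replicate 2 and replicate 1 on the log2(RPKM + 0.5) scale (y axis) against the GC content of the transcript (x axis) for the 35 tested carriers, in sh-QKI cells (left) and sh-Ctrl cells (right). The points fall with GC content in both groups, with a Pearson r of -0.79 in sh-QKI cells and -0.87 in sh-Ctrl cells, and SLC25A22 lies lowest in both.

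The differences between the numbers were shared by the groups. Across the carriers, the difference in sh-QKI cells correlated with that in sh-Ctrl cells with a Pearson r of 0.97, and across all tested genes with 0.95. GC content correlated with the difference at -0.79 in sh-QKI cells and -0.87 in sh-Ctrl cells across the carriers, beside -0.64 and -0.73 across all genes. The SD of the difference over the carriers was 0.60 in sh-QKI cells and 0.75 in sh-Ctrl cells. The study sequenced at read lengths of 50 and 75 bases in separate runs, and neither the labels nor the methods tie a number to a length, so read length, run and number cannot be told apart here.

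Motifs known to be bound by QKI were counted near the ends of the transcripts. ACTAAC or ACTAAT was searched on the transcript strand in the last 1000 bases of the annotated transcript of each gene. Of the 35 carriers, 9 held a match (25.7%), beside 24.9% of the 10844 tested genes with a transcript of at least 1000 bases. The 9 were SLC25A4, SLC25A12, SLC25A13, SLC25A17, SLC25A22, SLC25A26, SLC25A28, SLC25A36 and SLC25A40. The median change after knockdown was 0.01 for the 9 and -0.01 for the other carriers. A match is a description of the letters in this window, not a site of binding.

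Tested genes of 4 lists around the carriers had changes between -0.16 and 0.21. Of 8 family members kept under other symbols, 4 were tested and 0 were called by limma with or without the block, with a median change of -0.02. Among them MTCH1, an outer membrane relative of the carriers, was at 90.3 and 74.7 RPKM in sh-QKI libraries 1 and 2, against 103 and 70.8 RPKM in sh-Ctrl libraries 1 and 2. Of 10 genes for the import of carrier proteins through the TOM and TIM22 complexes, 0 were called, with a median of 0.04. TOMM20, a receptor of the outer membrane, was at 26.5 and 47.9 RPKM in sh-QKI cells and at 24.8 and 48.4 RPKM in sh-Ctrl cells. Of 13 genes for other transport across the mitochondrial membranes, 0 were called, with a median of 0.07. VDAC1, the outer membrane channel for metabolites, was at 66.1 and 61.4 RPKM in sh-QKI cells and at 69.9 and 57.7 RPKM in sh-Ctrl cells. Of 12 genes listed for mitochondrial content and its regulation, 10 were tested and 0 were called, with a median of 0.08. HSPD1, a chaperone of the matrix, was at 78.2 and 57.5 RPKM in sh-QKI cells and at 73.8 and 62.4 RPKM in sh-Ctrl cells, which overlapped.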

How the data were processed

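Single-end RNA-Seq libraries were made from total RNA with a TruSeq RNA kit and sequenced on an Illumina GAII. Reads were mapped by the authors to hg19 and to junctions between exons of protein-coding genes from Ensembl, allowing 3 mismatches, and ambiguous ones were dropped. The aligner was Bowtie, whose version was not given in the sources used here. From these the authors computed the deposited RPKM, 1 per gene and library. No deposited value is 0, and absent genes were set to 0. The sources used here do not say whether overlapping genes shared reads. Whole reads were recovered for 100% of genes (relative tolerance 1e-11). For each gene the smallest length that gave whole reads was taken, so recovered reads are least counts. This matters most for genes listed in few libraries.

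The 11829 genes that averaged 0.5 RPKM or more were fitted on log2(RPKM + 0.5) by limma 3.58.1 (R 4.3.3, trend option, two-sided), with Benjamini-Hochberg adjustment over all of them and 0.05 as the threshold. Another fit takes the replicate number as a block. Deviations were shared by libraries of 1 number (r = 0.953 across genes), but no shared culture is stated, so the number is a batch term and not a known pairing. Alternatives were pseudocounts of 0.1 and 1, no filter or a mean of at least 1 RPKM, median centring, voom on the recovered reads and leaving out each library. GC content and transcripts came from GENCODE lifted to hg19. All 44 carriers matched it by Ensembl ID, and 97.9% of the tested genes had a GC value. Python 3.11.15, numpy 2.4.6, pandas 2.3.3, scipy 1.17.1 and matplotlib 3.10.9 were used.

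Members, lists and tests were chosen with earlier results of these data known. Values per library were due for QKI, the most abundant carrier of each substrate group, the 10 most abundant carriers, any carrier called, the 5 largest rises and falls by the smaller of the changes within the numbers, where both had 1 sign (4 falls met it), carriers listed in some libraries only, and the most abundant gene of each list. Values of other carriers (SLC25A4, SLC25A6, SLC25A12, SLC25A22, SLC25A23, SLC25A25, SLC25A27, SLC25A34, SLC25A40 and SLC25A41) were chosen after their values were seen. The values of 1 tested carrier are not reported here one by one, but stay in the counts, medians and sums.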

Additional observations from a re-analysis of the deposited data

How the results depend on the processing

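Over 15 other settings, 0 carriers were called between sh-QKI and sh-Ctrl cells in each. Of these settings, 11 called at most 4 genes in all, so that 0 carriers there says little, and 4 with the replicate block called between 83 and 137 genes. The lowest limma adjusted p of a carrier was 0.503 (SLC25A27, voom with no filter and the replicate block). With all 4 libraries kept, at least 34 of the 35 tested carriers had the same sign of change as without a block. With 1 library left out, which sets replicate 1 against replicate 2 in part, between 17 and 28 of the 35 had the same sign. The median change of the carriers then lay between -0.05 and 0.06, and single carriers between -0.83 and 0.93. In fits that leave a group with 1 library, that library is assumed to vary like the other group. QKI passed the threshold only with the replicate block, at -1.72 in limma, -1.75 with median centring and the block, and -1.88 in voom with the block. The block changed the call of 0 carriers. The fit with no filter and the block, chosen after the data were seen, called 0 genes, so that QKI was not called either. The count of 22 carriers that differed between the numbers was the same in all 5 alternatives run for it. With 2 libraries a group, the intervals excluded a 1.5-fold change for 34 of 35 carriers with the block and for 0 without it, and the members below 0.5 RPKM, with few reads, allow no such limit.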

Other observations

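Of the carriers below the limit on mean RPKM, 3 had an unadjusted p under 0.05 in limma with no filter and the replicate block, a fit chosen after the data were seen. So did 481 of the 4879 genes below the limit (9.86%). SLC25A27, a relative of the uncoupling proteins known from brain, had 14 and 51 reads in sh-QKI libraries 1 and 2, against 17 and 115 reads in sh-Ctrl libraries 1 and 2. Its ratio of sh-QKI to sh-Ctrl was 0.803 in replicate 1, with an exact 95% interval of 0.366 to 1.73, and 0.441 in replicate 2, with an interval of 0.311 to 0.619, both for counting error only. It was lower in both numbers, but its limma adjusted p was 0.820 in that fit and 0.503 in voom with no filter and the block.

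SLC25A34 had 31 and 41 reads in sh-QKI libraries 1 and 2, against 22 and 28 reads in sh-Ctrl libraries 1 and 2 (limma adjusted p = 0.840). SLC25A41 had 8 and 12 reads in sh-QKI libraries, against 5 in each sh-Ctrl library (limma adjusted p = 0.587). The exact counting intervals of both included a ratio of 1 in both numbers, and neither gene was called after adjustment.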
